A study of Mus musculus with 32 samples.

Results

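Repeated oral gavage of water alone was examined in old mouse bladders. The comparison took the 5 libraries labelled water-treated old and the 6 labelled untreated old, which together are 11 of the 32 libraries of the series. They were chosen by their labels and not by any measured value. All 11 came from whole bladders of female C57BL/6 mice aged 26 months, 1 bladder per library. Water-treated old mice were gavaged with water once a month, for 3 days in a row, between the ages of 21 and 26 months, and untreated old mice were not gavaged. The remaining libraries came from young mice (2 months, n = 6), middle-aged mice (10 months, n = 5), vehicle-treated old mice (n = 4), gavaged on the same schedule with the solvent of the drugs (Phosal 50 PG, PEG 400 and ethanol), and D + Q-treated old mice (n = 6), gavaged with the senolytic drugs dasatinib and quercetin in that solvent. The water group served to account for effects of the procedure itself. No label gives an extraction, library or sequencing batch, so a batch and the gavage cannot be told apart. The mice were group housed and no label gives a cage, so the same holds for a shared cage.

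Gavage passes a tube down the esophagus and is a known handling stress for mice. The bladder wall holds a urothelium, which lines the lumen, over connective tissue and a smooth muscle coat, and in old mice it also holds lymphoid aggregates. RNA of a whole bladder is therefore a mixture, in which fewer cells of a type and less RNA per cell cannot be told apart. Much of the result below concerns ribosomal proteins, the structural proteins of the cytosolic ribosome. Their mRNAs are short and abundant, and many begin with a stretch of pyrimidines (C and T in the DNA) through which their translation is regulated by growth signals.

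The libraries held 18697996 to 49470890 counts in the water-treated group and 30757033 to 52650259 in the untreated group, and a count of 0 allows up to 3 counts per library, which covers counting error only. Urothelial markers summed to 15818 to 18132 TPM (counts divided by gene length and scaled to the same total in each library) in water-treated and 14710 to 16397 in untreated bladders, and smooth muscle markers to 42031 to 54223 and 39973 to 49126 TPM, so the labelled organ carried its defining markers in each library. Library 6 of the untreated group was the deepest and stood apart by its immunoglobulin share (2.81% of counts against a group median of 0.622%). Library 1 of the water-treated group was the shallowest. Counts of genes called are given below also without these libraries.

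Of 17250 genes tested with edgeR's quasi-likelihood test and Benjamini-Hochberg adjustment, 173 differed between water-treated and untreated old bladders at an adjusted p under 0.05, which is 1.0% of the genes. Expression was higher after water gavage for 84 genes (0.487%) and lower for 89 (0.516%). The changes were small. The median absolute log2 fold change of the 173 genes was 0.24, 161 of them changed by less than 0.5 on the log2 scale, and 2 changed by 1 or more. In 167 of the 173 genes the bladders of the groups did not overlap in normalized counts, 81 of them higher and 86 lower. Over all genes tested, such separation was found for 262 genes higher (1.52%) and 252 genes lower (1.46%) after water gavage. At an unadjusted p under 0.05 there were 2760 genes (16%), 1357 higher and 1403 lower. At the threshold, CT030661.1 was the last gene inside (adjusted p = 0.0499) and Bhlhe41, a repressor of the circadian clock, the nearest outside (adjusted p = 0.0502).

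The number of genes called depended on single bladders and on the model. It was 37 without water-treated bladder 1, 44 without water-treated bladder 6, 59 without water-treated bladder 4, 47 without untreated bladder 6, 50 without untreated bladder 5, 65 without untreated bladder 2 and 68 without untreated bladder 1. DESeq2 called 693 genes, whereas limma on log2(TPM + 1) called 0, with 2116 genes at an unadjusted p under 0.05. When the spread was estimated from all 6 groups in 1 fit, 0 genes passed (1749 at an unadjusted p under 0.05).

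Genes of the cytosolic ribosome made up most of the genes that rose. Of 79 ribosomal protein genes tested, 55 rose (69.6%, against 0.487% of all genes tested), 0 fell, and 24 did not pass. These 55 were 65.5% of the 84 genes that rose. All 79 had a positive log2 fold change, up to 0.37 in Rpl39, with a median of 0.21 (a factor of 1.15), where the median of all genes tested was 0.00065. The large subunit accounted for 33 called of 46 tested and the small subunit for 21 called of 31 tested. This family was assembled by symbol after the values were seen. A shorter list of 40 of its members, chosen with earlier results of these data known, had 25 genes called higher and 0 lower, with a median log2 fold change of 0.19. The number called was 22 of 79 without water-treated bladder 1 or 6, 25 without untreated bladder 5 or 6, 29 without untreated bladder 2, 32 without water-treated bladder 4 and 35 without untreated bladder 1, whereas the median stayed between 0.19 and 0.22 whichever bladder was left out.

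The start regions of 7 of these genes, and of Ifi213 and Itgb8, which fell, are shown because the pyrimidine stretch is the sequence feature that ribosomal protein genes are known for. Each window covers 30 bases of the gene's strand, 15 before the RefSeq start and 15 from it (GRCm38.p6), and capitals mark its longest run of C and T. Bases before the start are not part of the mRNA, and in Rpl37 and Ifi213 the whole marked run lies there. In Rpl39 and Itgb8 the marked run begins only after the first bases of the mRNA, so it is not a stretch that opens it. Where a gene had several starts, the one with the longest run was taken. The start used lay 526 bases from the annotated start of the gene in Itgb8, 281 in Rplp2 and 180 in Rpl39.
Rpl35a, chr16:33056467-33056496, plus strand: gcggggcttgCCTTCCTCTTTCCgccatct
Rpl38, chr11:114668565-114668594, plus strand: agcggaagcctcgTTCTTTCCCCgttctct
Rplp2, chr7:141447636-141447665, plus strand: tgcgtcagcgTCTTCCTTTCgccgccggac
Rpl39, chrX:37085208-37085237, minus strand: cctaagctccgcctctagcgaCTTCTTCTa
Rps21, chr2:180257364-180257393, plus strand: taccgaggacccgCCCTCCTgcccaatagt
Rpl37, chr15:5116598-5116627, plus strand: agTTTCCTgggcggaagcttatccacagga
Rps28, chr17:33824548-33824577, minus strand: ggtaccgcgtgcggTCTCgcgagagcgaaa
Ifi213, chr1:173599258-173599287, minus strand: agTTCCCCTCagtctgagcagctgagcagt
Itgb8, chr12:119238262-119238291, minus strand: acccccttggccttctagccgTCCCCTCCC
A run of 8 or more bases was found in 26 of 58 ribosomal protein genes with an entry (44.8%) and in 1921 of 12697 genes tested with an entry (15.1%), taking for each gene the start with the longest run. It was found in 16 of 57 genes that fell (28.1%). Only 73.4% of the ribosomal protein genes had an entry, and 73.6% of all genes tested. Runs that lie before the start are also counted, and the start was chosen by its run. The comparison is therefore void as a check of the family, and the windows are shown as a description.

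Rpl39 (ENSMUSG00000079641, chromosome X, 37082520 to 37085402, mm10), a small protein of the large subunit, had 511, 483, 518, 535 and 488 TPM in the 5 water-treated bladders and 343, 394 and 432 TPM at the lowest, median and highest of the 6 untreated bladders. The groups did not overlap, and the log2 fold change was 0.37 ± 0.05 (SE; adjusted p = 0.0113). Rpl35a (ENSMUSG00000060636, chromosome 16, 33056453 to 33060189), another large-subunit protein, had 265, 265, 268, 276 and 256 TPM after water gavage against 194, 214 and 234 TPM. It had the joint smallest adjusted p of the comparison (0.00761), with a log2 fold change of 0.30 ± 0.03 and no overlap.

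Rps28 (ENSMUSG00000067288, chromosome 17, 33819027 to 33824562), of the small subunit, reached 672 TPM in water-treated bladder 1 and 569, 532, 533 and 526 TPM in the others, above the untreated range of 395 to 472 TPM (median 453). Its log2 fold change was 0.34 ± 0.06 (adjusted p = 0.0235). It overlaps Kank3 on the other strand, and the strand setting of the counting is not given in the sources used here. Rpl36 (ENSMUSG00000057863, chromosome 17, 56613416 to 56614243) was the most uniform, with 2996, 2971, 2967, 2982 and 2996 TPM in water-treated bladders and 2183, 2399.7 and 2591 TPM at the lowest, median and highest untreated ones. It rose by a log2 fold change of 0.32 ± 0.04 (adjusted p = 0.0103).

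The other ribosomal protein genes among the 10 largest rises were Rpl37, Rps29, Rps21, Rplp2 and Rpl38, with log2 fold changes of 0.34, 0.33, 0.33, 0.32 and 0.31 and adjusted p between 0.0113 and 0.0139. In none of them did the groups overlap. Rplp2 encodes an acidic stalk protein, the part of the large subunit that recruits elongation factors. Among the members that did not pass, Rplp0, the base of the same stalk, stood at 0.10 on the log2 scale (adjusted p = 0.19). Many ribosomal protein genes have near-identical processed copies in the genome, and how reads shared with those copies were counted is not given in the sources used here, so the value of a single member is uncertain.

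Summed over the family, ribosomal protein mRNA reached 95361, 93466, 90209, 90997 and 90803 TPM in the 5 water-treated bladders and 71045, 81603 and 84017 TPM at the lowest, median and highest untreated ones. The means were 92167 ± 2177 (SD, n = 5) and 79677 ± 5303 TPM (SD, n = 6), a factor of 1.16, and the groups did not overlap. The lowest untreated sum was that of bladder 6, where the high immunoglobulin share lowers the TPM of all other genes. The factor from the median log2 fold change of the family, which does not rest on TPM, was 1.15. Vehicle-treated old bladders lay at 85285 to 94215 TPM, D + Q-treated old at 80999 to 99420, middle-aged at 83622 to 89772 and young at 68334 to 93030. As a share of all counts, genes with ribosomal protein symbols, a slightly different set, took 4.21% to 4.47% in water-treated and 3.59% to 3.91% in untreated bladders. The share was 4.05% to 4.47% in vehicle-treated, 3.78% to 4.88% in D + Q-treated, 3.74% to 4.12% in middle-aged and 3.00% to 4.22% in young bladders. The highest water-treated share was that of bladder 1, the shallowest library, and the part of depth was not tested.

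**Figure D1:**
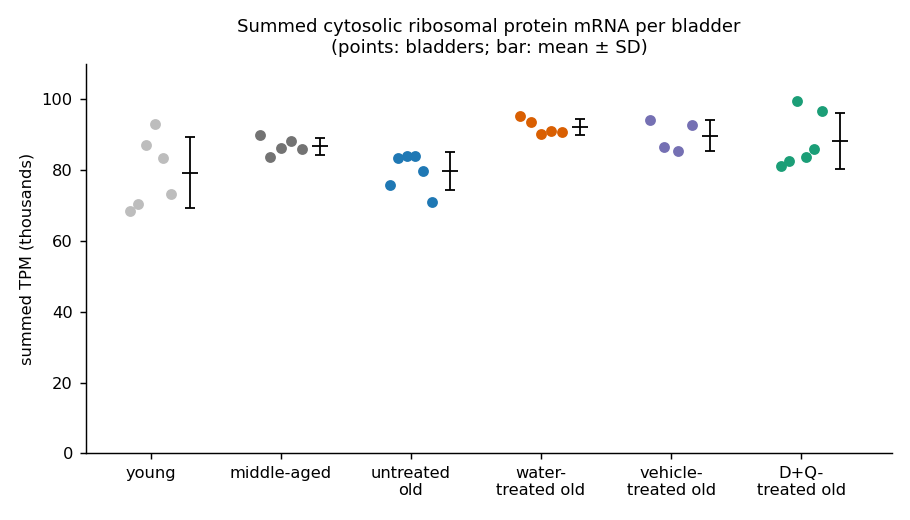
Summed TPM (axis in units of 1000 TPM) of cytosolic ribosomal protein genes in each bladder of the 6 groups, with the mean ± SD beside the points. The 5 water-treated old bladders, at 90209 to 95361 TPM, lie above the 6 untreated old bladders, at 71045 to 84017 TPM, and young bladders spread over 68334 to 93030 TPM.

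Eef1b2 and Eef1d, subunits of the exchange factor of the elongation factor eEF1A, rose by log2 fold changes of 0.13 (adjusted p = 0.038) and 0.17 (adjusted p = 0.0249). Eef1b2 had 625, 632, 634, 622 and 629.5 TPM in water-treated bladders against 526, 578 and 599.5 TPM. The groups did not overlap in either gene. Both were picked out after their values were seen, and they overlap Ndufs1 and Naprt. Of 78 genes of the mitochondrial ribosome, 1 rose (1.28%, against 0.487% of all genes tested), namely Mrpl52 (log2 fold change 0.23, adjusted p = 0.0207), 0 fell, and the median was 0.06.

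Of 36 subunits of complex I, which passes electrons from NADH to ubiquinone, 3 rose (8.33%, against 0.487% of all genes tested) and 0 fell, and 34 had a positive log2 fold change (median 0.10). Ndufb11 (ENSMUSG00000031059, chromosome X, 20615326 to 20617619) had 342, 337, 353, 348 and 344 TPM in water-treated bladders and 293, 303 and 324 TPM at the lowest, median and highest untreated ones. The groups did not overlap, and its log2 fold change was 0.17 ± 0.03 (adjusted p = 0.0289). Ndufs5 and Ndufa5 rose by 0.19 (adjusted p = 0.0361) and 0.22 (adjusted p = 0.0452) on the log2 scale. Summed over complex I, 5336 to 5612 TPM in water-treated bladders stood above 4628 to 5261 TPM in untreated ones. Of 39 subunits of complexes III and IV and ATP synthase, a set named after the values were seen, Uqcr10 of complex III (log2 fold change 0.21, adjusted p = 0.0203) and Atp5e of ATP synthase (0.20, adjusted p = 0.0487) rose (5.13% called higher), and 0 fell. The number of complex I genes called was 4 without water-treated bladder 2, 2 without untreated bladder 4, 1 without untreated bladder 6 and 0 without any other single bladder.

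Of the 13 protein-coding genes of the mitochondrial genome, 4 fell (30.8%, against 0.516% of all genes tested) and 0 rose (median log2 fold change -0.29). Those called were 1 without water-treated bladder 4, and 2 without water-treated bladder 1 or 6 or untreated bladder 1, 2, 5 or 6. mt-Nd2 (ENSMUSG00000064345, chromosome M, 3914 to 4951), a core subunit of complex I, had 5631, 5973, 6784, 6046 and 6128 TPM in water-treated bladders and 7454, 7802 and 8628 TPM at the lowest, median and highest untreated ones. The groups did not overlap, and its log2 fold change was -0.39 ± 0.06 (adjusted p = 0.0143). mt-Nd6, the one protein encoded on the light strand, had 4689.9, 5574, 5839, 5577 and 5611 TPM against 5959, 6658 and 7476 TPM (log2 fold change -0.29 ± 0.06, adjusted p = 0.0372). It overlaps mt-Nd5 on the other strand.

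Among the genes called, the largest falls were in the short transcripts mt-Atp8 and mt-Nd3. mt-Atp8 (ENSMUSG00000064356, chromosome M, 7766 to 7969), a subunit of ATP synthase, had 17.7, 8.73, 11.5, 12 and 18.6 TPM in water-treated bladders against 25.2, 48.1 and 61.7 TPM, without overlap (log2 fold change -1.79 ± 0.28, adjusted p = 0.0144). Its reading frame overlaps that of mt-Atp6, so that reads of the shared part may not have been assigned to it. mt-Nd3 (ENSMUSG00000064360, chromosome M, 9459 to 9806), a subunit of complex I, had 28.5, 49, 78.4, 48.4 and 63.5 TPM against 97.8, 113 and 133 TPM (log2 fold change -1.11 ± 0.20, adjusted p = 0.028). Their exon lengths are 204 and 348 bases, and the part of fragment size in these falls was not tested. The abundant mt-Co1 and mt-Cytb did not pass, with log2 fold changes of -0.13 and -0.04. The mitochondrial share of counts was 2.12% to 2.82% in water-treated and 2.74% to 3.04% in untreated bladders.

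**Figure D2:**
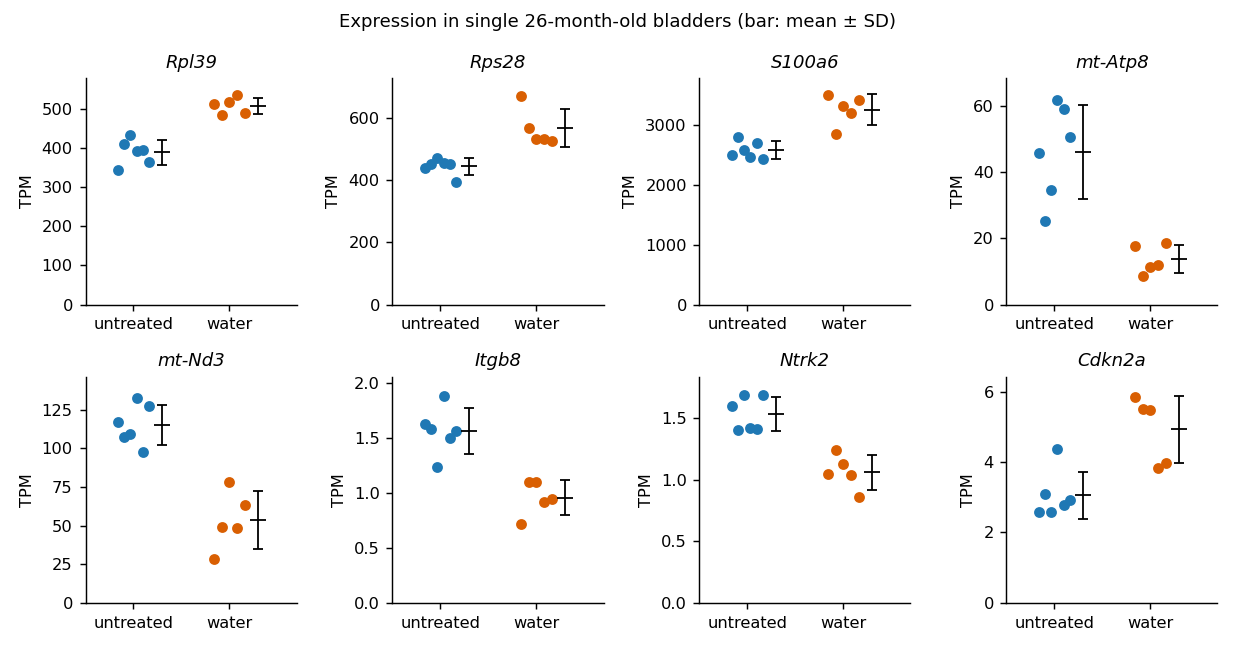
TPM of 8 genes in the 6 untreated and 5 water-treated old bladders, each point a bladder and the bar the mean ± SD. Rpl39, Rps28 and S100a6 are higher and mt-Atp8, mt-Nd3, Itgb8 and Ntrk2 lower in water-treated bladders without overlap, whereas Cdkn2a overlaps (3.82 to 5.84 against 2.58 to 4.36 TPM) and did not pass.

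S100a6 (ENSMUSG00000001025, chromosome 3, 90612882 to 90624181), a calcium-binding protein, had 3495, 2849, 3308, 3203 and 3423 TPM in water-treated bladders and 2428, 2545 and 2798 TPM at the lowest, median and highest untreated ones. The groups did not overlap (log2 fold change 0.33 ± 0.06, adjusted p = 0.0235). Krt18 (ENSMUSG00000023043, chromosome 15, 102028180 to 102032027), a keratin of simple epithelia and superficial urothelial cells, had 1764, 1519.6, 1719, 1601 and 1769.6 TPM against 1272, 1389.5 and 1494 TPM (0.28 ± 0.05, adjusted p = 0.028). It was the 1 gene called of 25 urothelial markers (4.0%, against 0.487% of all genes tested called higher), of which 20 had a positive sign (median 0.10). Epcam, an epithelial adhesion molecule picked out after its values were seen, rose by 0.27 on the log2 scale (adjusted p = 0.028). Krt19 did not pass (0.30, adjusted p = 0.0654), nor did Upk3a, an umbrella-cell uroplakin (0.13, adjusted p = 0.215). The summed urothelial markers overlapped between the groups, and what they contribute to these genes was not tested.

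The 85 nuclear genes that fell were mostly long, AU-rich transcripts of many functions. By the rule for named genes, the largest falls among genes called were Ifi213, Itgb8, Gt(ROSA)26Sor, Prrg1, Zfp991, Ntrk2, Sh3bgrl and Zdhhc2, beside mt-Atp8 and mt-Nd3. Ifi213 (ENSMUSG00000073491, chromosome 1, 173566283 to 173599274), of the interferon-inducible p200 family, had 2.05, 3.28, 2.46, 2.07 and 2.52 TPM against 3.57, 4.20 and 6.60 TPM in untreated bladders (log2 fold change -0.91 ± 0.17, adjusted p = 0.028). Itgb8 (ENSMUSG00000025321, chromosome 12, 119158022 to 119238802), an integrin subunit that activates latent TGF-beta, had 0.717, 1.10, 1.10, 0.923 and 0.951 TPM against 1.24, 1.58 and 1.89 TPM (-0.72 ± 0.13, adjusted p = 0.028). Ntrk2 (ENSMUSG00000055254, chromosome 13, 58806569 to 59133970), the receptor of brain-derived neurotrophic factor, had 1.05, 1.24, 1.13, 1.03 and 0.855 TPM against 1.40, 1.51 and 1.69 TPM (-0.55 ± 0.11, adjusted p = 0.0371). In these 3 genes the groups did not overlap, and all 3 were lowly expressed.

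Sh3bgrl, an abundant gene of this set that encodes a small thioredoxin-like protein, had 151, 162, 187, 200.4 and 184 TPM in water-treated bladders against 229, 249 and 278 TPM (log2 fold change -0.51 ± 0.08, adjusted p = 0.0188). Its range was 140 to 340 TPM in young and 153 to 291 TPM in middle-aged bladders. The noncoding Gt(ROSA)26Sor had 10.3, 8.79, 12.4, 13.5 and 11.7 TPM against 14.3, 17.3 and 21.9 TPM (-0.67 ± 0.14, adjusted p = 0.043). Prrg1, a transmembrane protein with a Gla domain, Zfp991, a zinc finger protein, and Zdhhc2, a palmitoyltransferase, fell by 0.59, 0.57 and 0.44 on the log2 scale. Sh3bgrl, Gt(ROSA)26Sor, Ntrk2 and Zdhhc2 overlap other annotated genes.

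The following genes were picked from those that fell after their values were seen, and no theme was tested. Mbnl1 (ENSMUSG00000027763, chromosome 3, 60472830 to 60629750), a splicing regulator, had 42.8, 41.6, 42.1, 44.2 and 43.7 TPM in water-treated bladders against 46.7, 52.0 and 53.3 TPM, and shared the smallest adjusted p with Rpl35a (log2 fold change -0.26 ± 0.03, adjusted p = 0.00761). Cpeb4, which binds polyadenylation elements, fell by 0.36 on the log2 scale (adjusted p = 0.0144). Ythdf3, a reader of N6-methyladenosine, fell by 0.25 (adjusted p = 0.0143), and Fmr1, a repressor of translation, by 0.25 (adjusted p = 0.0211). Of 15 genes of the YTHDF and YTHDC, CPEB, PUM and MBNL families, assembled after the values were seen, 3 fell (20%, against 0.516% of all genes tested), 0 rose and 10 had a negative sign. The other genes picked were Tlr4, the receptor of lipopolysaccharide (-0.28, adjusted p = 0.0469), Tgfbr1, a receptor of TGF-beta (-0.19, adjusted p = 0.0372), and Bmpr2, a receptor of bone morphogenetic proteins (-0.18, adjusted p = 0.0328).

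The genes that rose and fell differed in exon length and base composition. The median exon length was 4000 bases over all genes tested, 1828.5 for the 84 genes that rose, 1817 for the 29 of them that are not ribosomal protein genes, and 6543 for the 89 genes that fell. The median GC share of the longest transcript was 49.7% over all genes, 51.0% for genes that rose and 39.7% for genes that fell (quartiles 37.4% and 41.1%). Over all genes, without the ribosomal protein genes, the median log2 fold change was 0.04 between 500 and 1000 bases, 0.03 between 1000 and 2000, 0.01 between 2000 and 4000, -0.01 between 4000 and 8000 and -0.02 above 8000 bases. Below 500 bases it was -0.16. With an offset per library that removed the trends over length and GC share, chosen after seeing the data, 32 genes were called, 29 higher and 3 lower (90.6% higher, against 48.6% without the offset). In that fit 27 of the 79 ribosomal protein genes rose and 0 fell, with a median of 0.17, and mt-Atp8, mt-Nd3, Ifi213, Itgb8, Ntrk2, Sh3bgrl, S100a6 and Krt18 did not pass. How RNA quality or fragment size contributed to these trends was not tested.

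**Figure D3:**
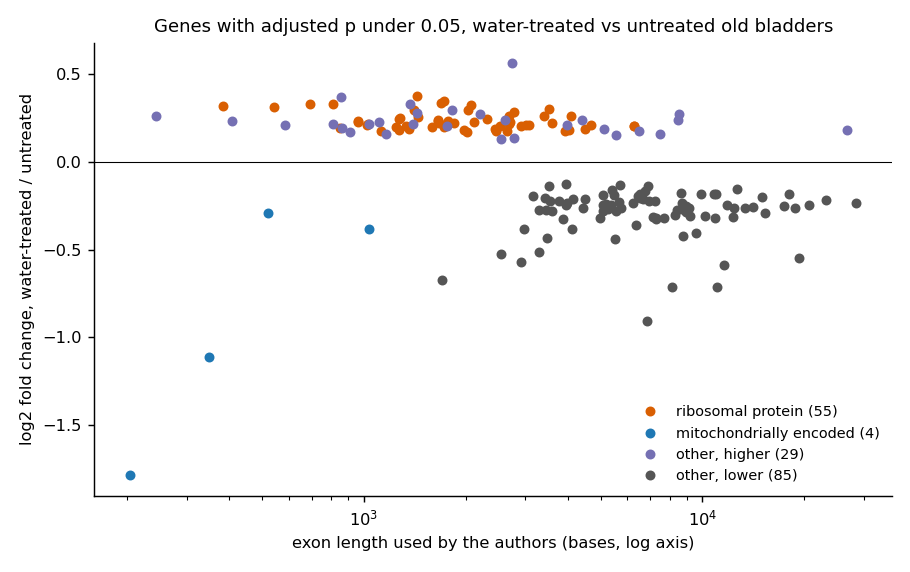
Log2 fold change of the 173 genes called, plotted against exon length in bases on a log axis, with the number of genes of each class in the legend. The 55 ribosomal protein genes lie above 0, mostly below 4000 bases, and the 85 nuclear genes that fell lie mostly above 4000 bases.

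Lists of genes that gavage or handling could touch were then read one by one. None of the genes for the glucocorticoid response, immediate early response, heat shock, endoplasmic reticulum (ER) stress, circadian clock, osmotic and water transport, NRF2 and aryl hydrocarbon response, or lipid metabolism and feeding passed the edgeR test. At an unadjusted p under 0.05, which 16% of all genes tested reached in either direction, the counts higher and lower were 5 and 2 of 24 glucocorticoid genes, 1 and 0 of 27 immediate early genes, 3 and 1 of 23 heat shock genes, 3 and 1 of 18 osmotic genes, 5 and 0 of 23 NRF2 genes and 6 and 3 of 30 feeding genes. Their median log2 fold changes lay between -0.05 and 0.05. Slc6a6, the taurine transporter, stood at 0.25 on the log2 scale (adjusted p = 0.129), and Aqp3, a water channel of the urothelium, 0.14 (adjusted p = 0.22).

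Of 20 clock genes, 0 passed, and 10 were higher and 4 lower at an unadjusted p under 0.05, against 16% of all genes in either direction (median log2 fold change 0.24). Bhlhe41 had 31.9, 36.8, 32.4, 36.4 and 34.9 TPM in water-treated bladders and 19.98, 27.2 and 31.3 TPM at the lowest, median and highest untreated ones, without overlap (0.38 ± 0.08, adjusted p = 0.0502). Ciart, a repressor of the clock, had 41.8, 28.4, 31.7, 43.4 and 38.1 TPM against 9.99, 20.6 and 29.1 TPM (0.88 ± 0.20, adjusted p = 0.0684), and the ranges overlapped. Per1, a core repressor also induced by glucocorticoids, had 79.8, 86.6, 82.3, 141 and 129 TPM against 57.9, 68.6 and 95.2 TPM (0.53 ± 0.17, adjusted p = 0.167). Water-treated bladders 4 and 6 were the highest for Per1. The activators Arntl and Clock had log2 fold changes of -0.55 (adjusted p = 0.244) and -0.20 (adjusted p = 0.125). The clock sum was lowest in untreated bladder 6 (858 TPM). Without that bladder the median was 0.19 and 9 genes had an unadjusted p under 0.05, which were 8 without water-treated bladder 4 and 7 without water-treated bladder 6. Without untreated bladder 4, 3 clock genes were called higher and 1 lower, against 0 with all 11 bladders, so these calls depend on the bladders used. Over all genes, leaving out 1 bladder gave 37 to 199 calls. The hour of death is not given in the sources used here, and its part was not tested.

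All 34 interferon-stimulated genes tested had a negative log2 fold change (median -0.34), 22 at an unadjusted p under 0.05, against 16% of all genes in either direction, and 0 passed. Zbp1, a sensor of Z-form nucleic acids, had 8.78, 10.8, 8.20, 8.23 and 9.53 TPM in water-treated bladders against 9.62, 14.1 and 19.7 TPM (-0.65 ± 0.14, adjusted p = 0.0575). Rtp4, a chaperone induced by interferon, had 14.7, 18.4, 16.6, 14.1 and 19.1 TPM against 19.8, 23.0 and 31.8 TPM without overlap (-0.55 ± 0.13, adjusted p = 0.0654). Isg15, a ubiquitin-like modifier, stood at -0.42 on the log2 scale (adjusted p = 0.132). Summed over the list, 1049 to 1295 TPM in water-treated bladders overlapped 1134 to 1751 TPM in untreated ones. Without untreated bladder 6 the median was -0.35 with 20 genes at an unadjusted p under 0.05, with 2 genes called without untreated bladder 1 and 1 without water-treated bladder 2. T cell markers moved with it: 22 of 23 were negative (median -0.49, summed 128 to 295 TPM against 183 to 386 TPM), 0 passed, and their part in the interferon-stimulated genes was not tested. Cd3e of the T cell receptor complex stood at -0.73 on the log2 scale (adjusted p = 0.114).

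Of 22 ER stress genes, 17 were negative, 11 lower and 2 higher at an unadjusted p under 0.05, against 16% of all genes in either direction, and 0 passed (median -0.18). Dnajc3, an ER co-chaperone, had 87.7, 88.2, 95.1, 90.1 and 88.1 TPM in water-treated bladders against 94.0, 106 and 109 TPM, with 1 water-treated bladder inside the untreated range (-0.22 ± 0.05, adjusted p = 0.0555). Hspa5, the main ER chaperone, stood at -0.29 on the log2 scale (adjusted p = 0.148). The sensor targets Atf4 and Ddit3 had log2 fold changes of 0.12 and 0.13. Without untreated bladder 6 the median was -0.13, and without untreated bladder 4 there was 1 gene called.

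Markers of cell types showed no other call. Of the cell type lists other than urothelium (smooth muscle, fibroblast, endothelium, Schwann cell and neuron, skeletal muscle, adipocyte, mesothelium and female tract, red blood cell, B cell, plasma cell, T cell, NK cell, macrophage, neutrophil and mast cell, with lymphoid chemokines, MHC class II and extracellular matrix), 0 genes passed in each. The median was -0.01 for smooth muscle, -0.06 for fibroblasts, -0.04 for endothelium, 0.08 for Schwann cells and neurons, -0.60 for adipocytes, -0.61 for red blood cells, 0.31 for B cells, -0.63 for plasma cells, -0.36 for NK cells and -0.18 for macrophages. The ranges of the summed levels overlapped between the groups in each of these lists. Some medians depended on single bladders. Leaving out any 1 of the 11 gave -0.16 to 0.56 for B cells, -0.78 to -0.09 for plasma cells and -0.81 to -0.11 for red blood cells. Of 32 cell cycle genes, 30 were negative (median -0.28) and 0 passed. Of 20 p53 targets, 1 fell (5%, against 0.516% of all genes tested) and 0 rose, whereas 13 had a positive sign (median 0.03). The one called was Ccng1, a cyclin that p53 induces, at -0.14 on the log2 scale (adjusted p = 0.0417). It was separated in normalized counts but not in TPM (153 to 165 against 159 to 181 TPM).

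Markers of senescence and its secretory phenotype, which the study measured, did not pass. Of 16, 4 (Csf2, Cxcl1, Il6 and Mmp13) were too low to test, and 0 of 12 were called, 3 higher and 1 lower at an unadjusted p under 0.05. Cdkn2a (ENSMUSG00000044303, chromosome 4, 89274471 to 89294653), which encodes p16 and p19Arf, had 5.84, 5.52, 5.48, 3.82 and 3.96 TPM in water-treated bladders and 2.58, 2.85 and 4.36 TPM at the lowest, median and highest untreated ones. The ranges overlapped through untreated bladder 4, and the log2 fold change was 0.67 ± 0.18 (adjusted p = 0.106, or 0.047 without that bladder). That bladder was singled out after its values were seen and held the highest untreated value, so the adjusted p without it is not a test of the change. Leaving out any 1 of the 11 bladders gave log2 fold changes of 0.60 to 0.78. Cdkn1a, which encodes p21, stood at 0.14 on the log2 scale (adjusted p = 0.247). Ptgs2, which encodes cyclooxygenase 2, had 4.29, 5.89, 11.4, 11.9 and 17.4 TPM against 13.6, 16.5 and 18.5 TPM (-0.66 ± 0.29, adjusted p = 0.287). Itgam, Adgre1, Tnf, Il1b, Il10, Ccl2, Ccl3, Mmp3 and Tgfb1 had adjusted p of 0.309 or more.

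**Figure D4:**
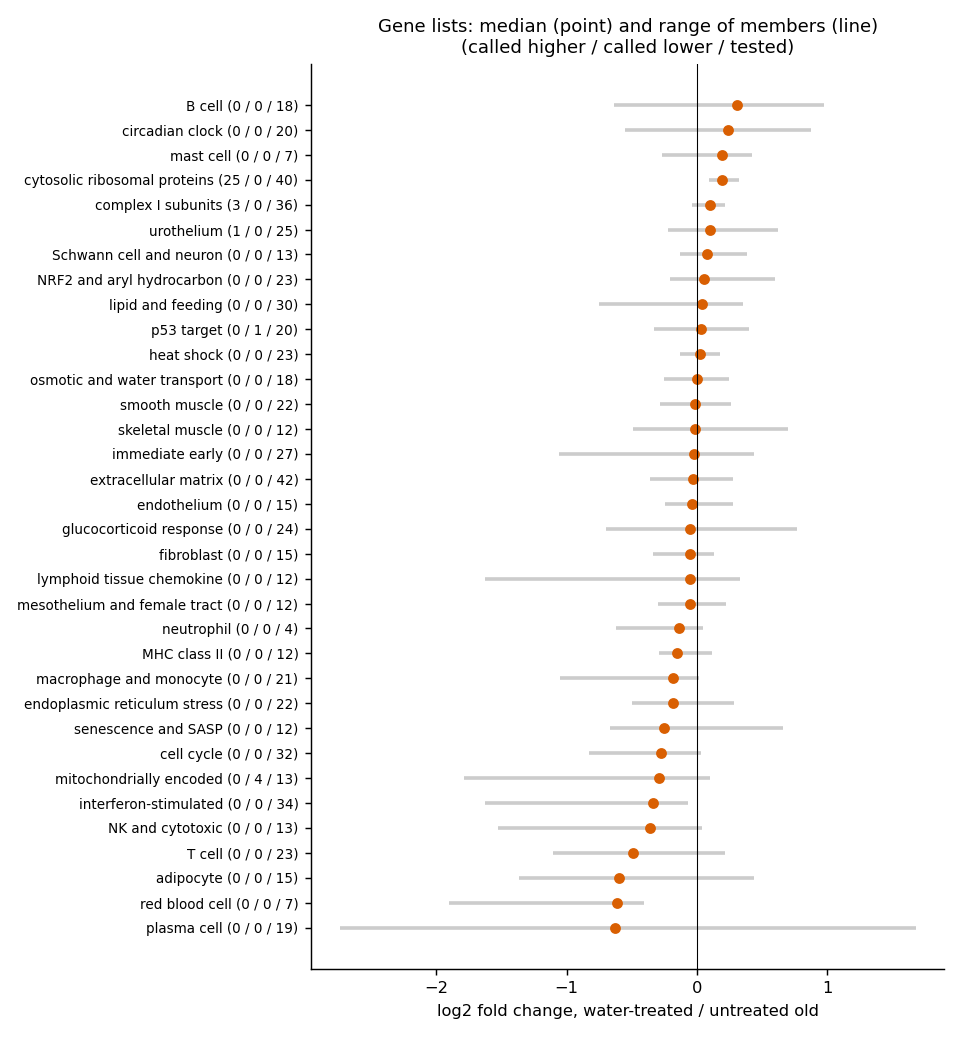
Median log2 fold change (point) and range over the members (line) of the 34 gene lists, water-treated over untreated old bladders, with the numbers called higher, called lower and tested beside each name. Ribosomal protein genes (25 higher of 40) and mitochondrially encoded genes (4 lower of 13) hold most calls, and interferon-stimulated genes lie below 0 without a call.

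The vehicle-treated old group, gavaged on the same schedule, gave a further reading of gavage, with the limit that its comparison with untreated old bladders shares the 6 untreated libraries and is not independent. Against untreated old bladders, 0 of 17440 genes passed the edgeR test (0%; 1464 genes or 8.39% at an unadjusted p under 0.05), whereas DESeq2 called 123 genes. The smallest adjusted p was 0.135. The median log2 fold change of the 79 ribosomal protein genes was 0.19 (range 0.06 to 0.40), 72 had an unadjusted p under 0.05, and 0 were called. Rpl39 stood at 0.38 on the log2 scale (adjusted p = 0.149), beside 0.37 after water, and mt-Atp8 one of -1.62 (adjusted p = 0.313), beside -1.79 after water. The falls of Ntrk2 and Ifi213 were smaller, at -0.11 (adjusted p = 0.905) and -0.47 (adjusted p = 0.713), beside -0.55 and -0.91.

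D + Q-treated old bladders, gavaged on the same schedule but also given the drugs, were not fitted against the other groups here, and their levels are given side by side. mt-Nd3 had 96.9 to 179.7 TPM in them, against 28.5 to 78.4 TPM after water and 97.8 to 133 TPM without gavage. mt-Atp8 had 26.4 to 53.2 TPM, mt-Nd2 6924 to 7987 TPM and Sh3bgrl 219 to 264 TPM, each overlapping the untreated range and not the water-treated one. Rpl39 had 369 to 542 TPM, which overlapped both. Ifi213 had 1.96 to 4.04 TPM and Ntrk2 0.897 to 1.58 TPM, which also overlapped both.

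Vehicle-treated and water-treated old bladders were compared directly, which asks what the solvent adds to gavage. None of 17294 genes passed (0%; 322 genes or 1.86% at an unadjusted p under 0.05), and DESeq2 and limma on log2(TPM + 1) also called 0. The ribosomal protein genes had a median log2 fold change of -0.01, and 0 were at an unadjusted p under 0.05. Rpl39 had a log2 fold change of 0.01 ± 0.05 and mt-Nd2 one of 0.03. A call missed at n = 4 against 5 does not show that the groups were alike.

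**Figure D5:**
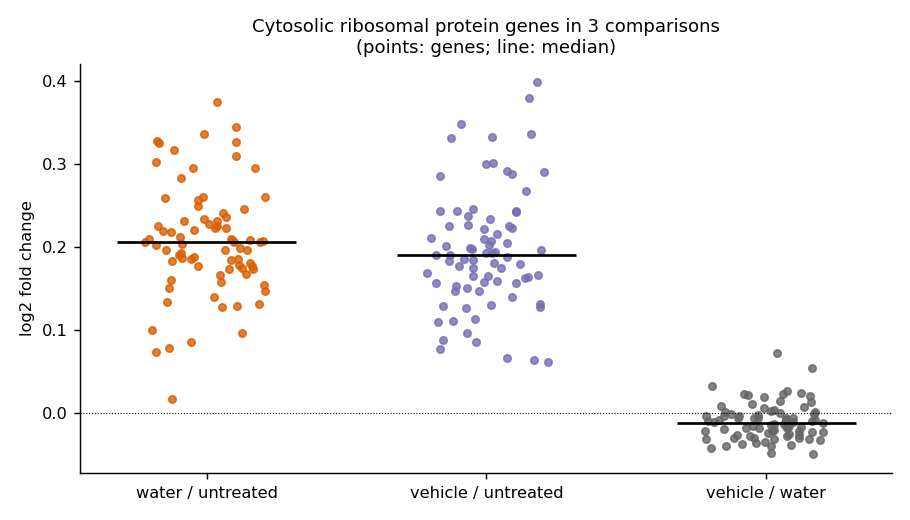
Log2 fold change of the 79 cytosolic ribosomal protein genes in 3 comparisons of old bladders, each point a gene and the line the median. The medians are 0.21 for water over untreated, 0.19 for vehicle over untreated and -0.01 for vehicle over water, and the comparisons share bladders.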

How the data were processed

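Per the file headers and the study's methods, the authors aligned reads of TruSeq stranded total RNA libraries to mm10 with STAR 2.7.3 and deposited raw counts per gene from featureCounts, with summed exon lengths in bases as the other unit. They also deposited log2 values of length-scaled (count + 1), summing to 100000 per bladder before the log, used only for limma. The strand setting is not given in the sources used here. Counts were tested with edgeR 4.0.16 in R 4.3.3 (TMM, filterByExpr, quasi-likelihood, Benjamini-Hochberg adjusted p under 0.05), each fit holding its 2 groups only. DESeq2 1.42.0 and limma 3.58.1 were alternatives. TPM were computed from the counts. No count column was left without a sample. The group, lists and rule were chosen with earlier results of these data known. Named genes are the 10 largest rises and 10 largest falls among called genes of at least 1 TPM whose bladders did not overlap, the 2 smallest p of each of 34 lists, and 16 markers of the study. All p-values measure the spread between single bladders, which were taken as independent because no cage is labelled. Fits were also run on simulated counts with a spread that was set and not taken from these bladders. That run is therefore no check of the genes called here. Matplotlib 3.10.9 drew the plots.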

Additional observations from a re-analysis of the deposited data

Results flagged for a closer look

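Of 272 groups of values tested for a single bladder far from the others of its group, 18 were flagged, and chance flags about 1 in 20. All values are TPM. In untreated bladder 6, Prrg1 was 0.982 (others 1.18 to 1.29), Krt1 1.40 (1.78 to 2.01), Fkbp4 175 (193 to 205), Ccng1 159 (174 to 181) and Iglc2, an immunoglobulin light chain constant region, 2634 (56.5 to 94.4). In the same bladder the summed immunoglobulin V, D and J segments reached 69819.7 (others 9807 to 27777), the summed circadian clock genes 858 (1104 to 1240.5) and the summed urothelial markers 14709.7 (15795 to 16397). TPM have the same total in each library, so the high immunoglobulin sum lowers the TPM of other genes in this bladder. Summed over all protein-coding genes, the lowest untreated bladder had 853382, against a group median of 950863. The low values flagged in bladder 6 include this effect, and how far each goes beyond it was not tested. In untreated bladder 3, Itgam was 38.9 (20.5 to 25.6), Ccl2 14.4 (4.75 to 6.74), the summed macrophage and monocyte markers 3836 (2399.6 to 2892) and the summed senescence markers 288 (209.6 to 229). In untreated bladder 4, Dnajc3 was 94.0 (103 to 109) and Cdkn2a 4.36 (2.58 to 3.09). In water-treated bladder 1, Rpl38 was 1409 (1233 to 1276), Ccl2 11.1 (4.11 to 5.00) and Lep 0 (0.537 to 0.783). In water-treated bladder 6 the summed skeletal muscle markers were 1096 (842 to 899).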

How the results depend on the processing

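The number of genes changed, water-treated old vs untreated old, was 173, and it was 693 with DESeq2, 99 without a filter on low counts, 3 with the 4 groups of old bladders in 1 fit, 0 with all 6 groups in 1 fit, 0 with limma on log2(TPM + 1) or log2(TPM + 0.1), and 32 with the length and GC offset, chosen after seeing the data. Leaving out 1 bladder gave 37 to 199 genes, the lowest without water-treated bladder 1 and the highest without water-treated bladder 2. All 173 genes kept their sign under each of these settings. They were selected in these same libraries, so a kept sign is no independent check. Same-numbered bladders did not deviate together (correlations from -0.081 to 0.089), and with the replicate number as a block 0 genes were called, by description or title number, with 2129 and 2064 genes at an unadjusted p under 0.05. Vehicle-treated against untreated old bladders gave 123 genes with DESeq2 and 0 without any 1 bladder, and vehicle-treated against water-treated 0 under each setting. For Il10, log2 fold change, water-treated minus untreated old, the value of 0.004 reversed to -0.039 with DESeq2, -0.0095 without a filter, -0.014 with 6 groups, -0.0053 with 4 groups, -0.0064 with the offset, -0.12 and -0.23 with limma, and -0.22 and -0.17 with the blocks, and it ranged from -0.34 to 0.24 without 1 bladder. The log2 fold change of Iglc2 was 0.23 with the title block and -3.0 to 0.40 without 1 bladder, that of S100a9 0.16 with the title block, and that of Ccl2 -0.56 to 0.073 without 1 bladder. The cause of these changes was not tested.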
